A study of Mus musculus with 6 samples.

Results

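Distal chromatin that stayed accessible after loss of the transcription factor OTX2 was examined in mouse definitive endoderm. The regions are peaks of the authors' deposited table that overlapped by at least 1 base a peak of the pooled DMSO list and also a peak of the pooled dTAG13 list, and that the authors annotated as distal intergenic or intronic. They were thus chosen by peak calls, and so by the signal measured in both groups. They number 14958 of 70494 peaks (21.2%) and 37.0% of the 40432 distal peaks, and are called shared distal peaks below. Of these, 8381 (56.0%) were intergenic and 6577 (44.0%) intronic. ATAC-seq marks accessible DNA by a transposase that cuts it and adds adapters. All libraries came from line 7H, of mixed BL6 and 129 background, in which OTX2 carries a dTAG degradation tag and EGFP. Both groups thus carried the tagged protein, and line 7H is the 1 line used. Epiblast stem cells (EpiSCs) were differentiated for 16 h in 3 uM CHIR plus 40 ng/ml Activin A, then for 24 h in 100 nM LDN plus 100 ng/ml Activin A. From the primitive streak stage, 3 libraries received dTAG13 and 3 received DMSO for 24 h, and each library was made from 50000 live sorted cells. The series' text describes the 3 libraries of a group as technical replicates, so the errors below measure the spread between repeated libraries. In such bulk libraries, fewer cells with an open region and less opening per cell cannot be told apart.

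Distal open chromatin is where enhancers lie, short stretches of DNA that bind several transcription factors at once and act on promoters from afar. OTX2 is a paired-class homeodomain protein that binds the sequence GGATTA, or TAATCC on the other strand, and is known for its part in anterior patterning of the embryo, in the epiblast and in the anterior endoderm. In endoderm, GATA, FOX, SOX and EOMES-type T-box factors bind many of the same enhancers. TEAD proteins carry the output of the Hippo pathway, TCF/LEF proteins that of WNT signalling, and CTCF binds insulators and loop anchors. dTAG13 links the tagged protein to the ubiquitin machinery and has it degraded, and DMSO is its solvent.

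The sequences below are the 201 bases around the midpoint of a peak, 5′ to 3′ on the plus strand of mm10, taken from RefSeq's GRCm38.p6 assembly. They were picked after the values had been seen, from called peaks that hold the match shown and from peaks with narrow intervals around no change. The first 5 were lower in dTAG13 (adjusted p under 0.05 in the authors' deposited table). They hold the OTX consensus, in capitals on either strand, at Tlx1 (chr19:45114151-45114351), 4930519F24Rik (chr9:100095550-100095750), Twsg1 (chr17:65936251-65936451), Shisa2 (chr14:59756626-59756826) and Dkk1 (chr19:30554521-30554721). Gene names are those of the authors' gene column, and the gene so named need not be the one a region acts on. Intron numbers below are those of the transcript in the authors' annotation, which need not belong to that gene.
Tlx1: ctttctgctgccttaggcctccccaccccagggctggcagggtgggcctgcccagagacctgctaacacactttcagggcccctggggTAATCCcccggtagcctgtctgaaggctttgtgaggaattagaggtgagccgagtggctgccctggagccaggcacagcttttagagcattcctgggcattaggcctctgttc
4930519F24Rik: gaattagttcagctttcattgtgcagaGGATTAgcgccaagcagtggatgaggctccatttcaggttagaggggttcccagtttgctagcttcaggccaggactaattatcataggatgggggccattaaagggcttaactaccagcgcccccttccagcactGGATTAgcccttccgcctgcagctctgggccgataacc
Twsg1: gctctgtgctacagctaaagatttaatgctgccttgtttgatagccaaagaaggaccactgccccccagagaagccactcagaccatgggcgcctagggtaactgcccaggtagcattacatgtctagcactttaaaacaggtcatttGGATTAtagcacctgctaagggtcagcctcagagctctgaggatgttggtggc
Shisa2: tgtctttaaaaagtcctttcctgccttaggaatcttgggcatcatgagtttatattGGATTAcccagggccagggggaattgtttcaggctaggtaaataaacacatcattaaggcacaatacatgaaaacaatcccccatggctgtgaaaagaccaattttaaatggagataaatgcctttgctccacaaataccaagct
Dkk1: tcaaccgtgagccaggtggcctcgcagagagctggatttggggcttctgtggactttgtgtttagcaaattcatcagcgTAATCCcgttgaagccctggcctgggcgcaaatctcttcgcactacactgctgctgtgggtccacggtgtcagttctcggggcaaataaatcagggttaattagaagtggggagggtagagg

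The next 5 were higher in dTAG13 by the same threshold. Capitals mark the TEAD consensus GGAATG, or CATTCC on the other strand, at B3gat1 (chr9:26518893-26519093), 4930430E12Rik (chr4:6337307-6337507) and Fam120b (chr17:15440760-15440960). In the other two they mark the TCF/LEF consensus CTTTGAT, or ATCAAAG, at Gm25872 (chr17:7642361-7642561) and Gm12692 (chr4:98244057-98244257). None of these 5 windows holds the OTX consensus.
B3gat1: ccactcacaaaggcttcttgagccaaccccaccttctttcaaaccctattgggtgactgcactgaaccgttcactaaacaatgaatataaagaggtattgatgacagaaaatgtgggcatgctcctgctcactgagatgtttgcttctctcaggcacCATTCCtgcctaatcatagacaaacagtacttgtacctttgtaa
4930430E12Rik: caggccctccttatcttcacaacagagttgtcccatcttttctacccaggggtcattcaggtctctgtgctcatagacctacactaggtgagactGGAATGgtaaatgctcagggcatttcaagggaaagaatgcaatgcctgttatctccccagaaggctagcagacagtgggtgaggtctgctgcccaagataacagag
Fam120b: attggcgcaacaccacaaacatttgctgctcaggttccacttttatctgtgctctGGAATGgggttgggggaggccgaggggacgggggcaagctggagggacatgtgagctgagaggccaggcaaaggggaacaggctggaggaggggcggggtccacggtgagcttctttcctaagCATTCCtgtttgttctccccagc
Gm25872: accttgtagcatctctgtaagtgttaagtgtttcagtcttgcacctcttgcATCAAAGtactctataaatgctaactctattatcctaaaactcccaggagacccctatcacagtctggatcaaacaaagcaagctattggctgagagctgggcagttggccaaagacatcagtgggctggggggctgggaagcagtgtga
Gm12692: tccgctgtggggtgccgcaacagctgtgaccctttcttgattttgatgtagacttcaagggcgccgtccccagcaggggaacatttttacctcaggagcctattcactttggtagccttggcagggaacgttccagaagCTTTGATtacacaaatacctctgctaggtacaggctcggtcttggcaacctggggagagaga

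The last 4 were picked for narrow intervals around no change among peaks that hold the match shown, have no repeated words and lie over 1000 bases from a start site. At Ptma (chr1:86504192-86504392) and Stard10 (chr7:101310630-101310830) the capitals mark the core of the CTCF motif. At Fam178b (chr1:36580612-36580812) and Il17rd (chr14:27045065-27045265) they mark the OTX consensus, so the consensus was also present in shared distal peaks whose interval of the log2 fold change lay within 1 of 0.
Ptma: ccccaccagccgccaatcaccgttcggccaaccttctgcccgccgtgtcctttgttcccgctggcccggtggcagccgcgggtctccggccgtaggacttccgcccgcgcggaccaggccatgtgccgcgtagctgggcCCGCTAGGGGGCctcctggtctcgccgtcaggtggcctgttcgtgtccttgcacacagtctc
Stard10: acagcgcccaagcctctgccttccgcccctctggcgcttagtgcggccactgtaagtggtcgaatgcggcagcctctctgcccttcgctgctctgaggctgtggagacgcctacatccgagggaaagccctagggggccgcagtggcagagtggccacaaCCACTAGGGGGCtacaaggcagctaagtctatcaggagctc
Fam178b: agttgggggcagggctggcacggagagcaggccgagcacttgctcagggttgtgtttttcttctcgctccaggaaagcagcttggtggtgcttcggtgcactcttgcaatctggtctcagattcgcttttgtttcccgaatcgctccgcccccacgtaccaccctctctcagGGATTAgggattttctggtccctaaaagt
Il17rd: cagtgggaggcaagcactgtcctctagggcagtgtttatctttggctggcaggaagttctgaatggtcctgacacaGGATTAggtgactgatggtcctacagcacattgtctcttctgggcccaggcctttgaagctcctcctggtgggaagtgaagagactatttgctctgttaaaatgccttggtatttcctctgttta

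Most shared distal peaks were short and weak. The mean normalized count over the 6 libraries in the authors' deposited table had quartiles of 7.11 and 16.9 around a median of 10.4, with extremes of 1.30 and 1981. The median length was 169 bases, and the median distance to the nearest annotated start site was 14559 bases. Distal peaks found in the DMSO list alone had a median mean normalized count of 4.04 and those of the dTAG13 list alone 4.32, while promoter peaks of both lists had 21.04. Shared distal peaks therefore stood between the distal peaks of a single list and shared promoters in signal. They held 22.9% of the summed mean normalized counts of the table. Of the intronic ones, 1965 (29.9%) lay in the first intron of their transcript. The median distance to the nearest other shared distal peak was 35796 bases, and 13.1% had another within 5000 bases. The median GC content of the 201-base windows was 51.7%, against 63.7% at promoter peaks of both lists, 49.3% at distal peaks of the DMSO list alone and 50.2% at those of the dTAG13 list alone.

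Peak lists and fold changes come from the same reads, so the fold changes of these peaks are a description, and no test was applied to them. In the authors' deposited table their log2 fold changes of dTAG13 over DMSO had a median of 0.09 (quartiles -0.33 and 0.51) with a median standard error (SE) of 0.58. The median was -0.18 over all peaks of the table and 0.10 for promoter peaks of both lists. A value of 0 thus depends on where the zero of the table is set, and with the median of all peaks at 0 the median of shared distal peaks was 0.27. Values at the edge of the rule are given for orientation. The smallest overlaps with a list peak were 61 bases for DMSO and 59 for dTAG13. These equal the lengths of the shortest list peaks there, so no overlap was of only a few bases. The 1251 peaks whose smallest overlap was at most 65 bases had a median mean normalized count of 6.12 and a median log2 fold change of -0.01. Outside the rule, 181 distal peaks of a single list lay within 100 bases of a peak of the other list, the nearest at 51 bases. Their median log2 fold change in the authors' deposited table was -1.08 for the 94 in the DMSO list and 1.41 for the 87 in the dTAG13 list.

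Few shared distal peaks were called. By an adjusted p under 0.05 in the authors' deposited table, 275 (1.84%) were lower and 218 (1.46%) higher in dTAG13, beside 3.79% lower and 1.47% higher over all tested peaks. Nothing is read from these shares, since a peak had to be found in both groups to be counted here. The split between directions moved with the zero point and the overlap asked for. With an overlap of 50% of both peaks it was 82 lower and 141 higher. This setting is not independent of the fold change, since the lengths of the list peaks followed it, as given below. The split was 167 lower and 403 higher when the median of all peaks was put at 0. With the median of the peaks of both lists at 0 it was 358 lower and 165 higher. A change of at least 1 in log2 was reached by 256 of the lower and 195 of the higher peaks.

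Called peaks kept signal in both groups, as the rule asks of them. At lower peaks the deposited log2 fold change had its median at -1.40 and its quartiles at -1.69 and -1.21. Group means approximated from the deposited mean and fold change had medians of 38.2 in DMSO and 13.7 in dTAG13 at these peaks. Only 2 of the 275 had an approximate dTAG13 mean of at most 3 normalized counts. At higher peaks the median was 1.52 and the quartiles 1.21 and 1.79, with approximate medians of 11.1 in DMSO and 31.4 in dTAG13. At called peaks the lengths of the list peaks went the same way as the signal. Over all shared distal peaks the DMSO list peak was longer in 66.2%, with a median ratio of DMSO to dTAG13 length of 1.16. This ratio was 2.65 at lower and 0.616 at higher peaks.

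**Figure D1:**
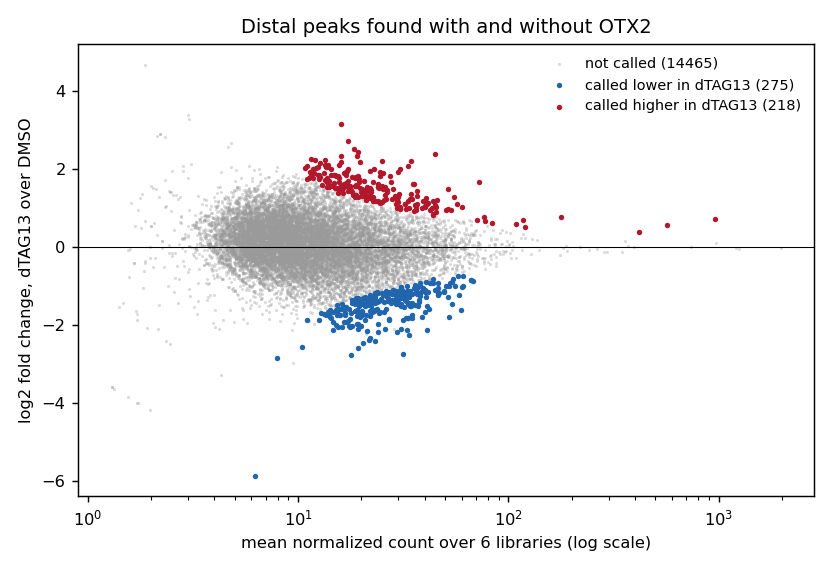
Each point is a shared distal peak, with its mean normalized count over 6 libraries on a log axis and the deposited log2 fold change of dTAG13 over DMSO. The 275 lower peaks (blue) and 218 higher peaks (red) begin at mean normalized counts of 6.24 and 10.8, and the spread narrows as the count grows.

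How well an equal signal was determined depended on the count. The interval of the deposited log2 fold change, taken at 95% from its SE, lay within 1 of 0 at 1556 shared distal peaks (10.4%, Wilson interval 9.92 to 10.9%), beside 12.7% of all peaks. At promoter peaks of both lists it did so at 7228 of 17857 (40.5%). By the 4 equal bins of mean normalized count, from low to high, shared distal peaks reached this in 0, 0, 3.40 and 38.2%. For the others, the authors' standard errors leave a difference of more than 1 in log2 possible in either direction or both. Such intervals on a share reflect the number of peaks and no spread between libraries.

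The lower peak with the smallest p was intergenic and assigned to Tlx1, a homeobox gene needed for spleen development (chromosome 19, 45113945 to 45114556). Its approximate means were 54.7 in DMSO and 8.19 in dTAG13, and the deposited log2 fold change was -2.74 (adjusted p 8.85e-08, SE 0.40 in the authors' deposited table). The DMSO list peak was 612 bases long and the dTAG13 list peak 66 bases, so the region was still called without OTX2 but over a much shorter stretch. Next came an intergenic peak 88872 bases from the start of Rps15a, a ribosomal protein gene (chromosome 7, 118026086 to 118026626). There the approximate means were 66.7 and 15.2 and the deposited log2 fold change was -2.13 (SE 0.32, adjusted p 1.41e-07). It held a GATA consensus and no OTX consensus.

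The third was the intergenic peak at 4930519F24Rik (chromosome 9, 100095372 to 100095927), with a pair of OTX matches, approximate means of 81.4 and 23.4 and in the authors' deposited table a difference of -1.80 in log2 (SE 0.29, adjusted p 2.88e-06). A peak assigned to Clip4, which encodes a microtubule-associated protein, lay in intron 11 of 28 of a transcript (chromosome 17, 71947319 to 71948016). The nearest start site was that of AC154458.1, and the transcript need not be one of Clip4. This peak had approximate means of 89.6 and 29.4 and a deposited log2 fold change of -1.61 (SE 0.27). Another, in intron 3 of 4 of Twsg1 (chromosome 17, 65936087 to 65936614), had 55.7 and 11.8 and a deposited log2 fold change of -2.24 (SE 0.38, adjusted p 8.7e-06). Twsg1 encodes an extracellular protein that binds BMP ligands and chordin. Of these 5 lower peaks, 3 held the OTX consensus, and all 5 were longer in the DMSO list.

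The higher peak with the smallest p is hard to place. It lay in intron 3 of 26 at Gm44436 (chromosome 6, 103649083 to 103649292), with approximate means of 726 in DMSO and 1188 in dTAG13 and in the authors' deposited table a difference of 0.71 in log2 (SE 0.08, adjusted p 6.37e-15). Of its 31-base words, 58.3% occur more than 1 time in the assembled chromosomes, so its reads may come from several places. The next had no repeated word. A peak in intron 2 of 3 at Gm43931 (chromosome 6, 145942409 to 145942975) rose from an approximate 14.3 to 75.03, with a deposited log2 fold change of 2.39 (SE 0.30, adjusted p 4.4e-11). It held a GATA consensus.

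A peak in intron 23 of 23 of Oca2, which encodes a melanosome membrane protein (chromosome 7, 56519687 to 56520218), rose from 34.9 to 110 on the same approximate scale. Its log2 fold change in the authors' deposited table was 1.66 (SE 0.23, adjusted p 1.42e-08), and it held a T-box consensus. A peak assigned to Gm25049, in intron 6 of 11 of a transcript with Btbd9 as the nearest start site (chromosome 17, 30346894 to 30347424), had approximate means of 12.2 and 56.6 and a deposited log2 fold change of 2.21 (SE 0.34). The intergenic peak at Gm25872 (chromosome 17, 7642239 to 7642683), whose TCF/LEF match is shown above, had 12.8 and 53.7 and a deposited log2 fold change of 2.07 (SE 0.33, adjusted p 2.03e-06). None of these 5 higher peaks held the OTX consensus.

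Of the 5 strongest shared distal peaks, 4 were not called and 1, at Gm44436, was the higher peak described above. The highest mean normalized count in the authors' deposited table was 1981, at an intergenic peak assigned to Gm11668 (chromosome 11, 109011647 to 109012080), where the difference in log2 was -0.02 (SE 0.06). A peak in intron 2 of 11 at Cdk8, a kinase of the Mediator complex (chromosome 5, 146260984 to 146261364), had 1255 counts and -0.06 (SE 0.07) in the same table. The intergenic peak at Gm25352 (chromosome 3, 5860347 to 5860826) had 1212 counts and -0.03 (SE 0.07), but 66.7% of its words are repeated. An intergenic peak at Gtpbp4, which encodes a nucleolar GTPase of ribosome assembly (chromosome 13, 9011704 to 9011843), had 975 counts, a log2 difference of 0.12 (SE 0.07) by that table and no repeated word. Together with Gm44436 these are the 5 strongest. Of 42 shared distal peaks above 100 mean normalized counts, 24 held a repeated word and 7 were called, while 13.7% of the others held a repeated word. Over all shared distal peaks, 1.84% were called lower and 1.46% higher.

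The narrowest intervals around no change were found at Gm11668, Gm25352, Filip1l, Cdk8 and Gm8855. The peak in intron 1 of 4 at Filip1l (chromosome 16, 57391122 to 57391676) had approximate means of 736 and 738 and a deposited log2 fold change of 0.00 (SE 0.09), with 80.4% of its words repeated. The peak in intron 5 of 10 at Gm8855 (chromosome X, 87238358 to 87238422) had 397 and 395 and a deposited log2 fold change of -0.01 (SE 0.10), with no repeated word. Over all shared distal peaks, 2067 (13.8%) held a repeated word and 696 (4.65%) consisted of repeated words for over 50%. Without these 696, the counts of lower and higher peaks were 267 and 213.

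The OTX consensus GGATTA was scanned on both strands of the 201-base windows, beside its reversed spelling ATTAGG as a control of the same composition. It was present in 1124 shared distal peaks (7.51%, Wilson interval 7.10 to 7.95%) and in 8.85% of all peaks. The share was 16.5% at distal peaks of the DMSO list alone, 3.59% at those of the dTAG13 list alone and 3.26% at promoter peaks of both lists. The reversed control stood at 7.90% of shared distal peaks, and at 10.6, 6.26 and 3.25% of the same 3 classes. Shared distal peaks thus held the consensus about as often as its reversed spelling, and of these 4 classes the distal peaks of the DMSO list alone held it more often than the control, with intervals apart (16.04 to 17.1% and 10.2 to 11.04%). Within the shared distal peaks the consensus was unevenly spread. It was present in 75 of 275 lower peaks (27.3%, interval 22.3 to 32.8%), in 7.22% of those not called and in 5 of 218 higher peaks (2.29%, 0.984 to 5.26%). The control was present in 17.8, 7.69 and 9.63% of these. Its interval in lower peaks (13.7 to 22.8%) overlapped that of the consensus.

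The other consensus sequences were scanned in the same way. Each could overlap another, and a match is a run of letters and no measure of binding. The GATA consensus AGATAA was the most frequent of those searched in shared distal peaks, at 20.5% against 15.7% of all peaks and 5.14% of shared promoters. SOX (ACAATG) was found in 11.1% against 10.2% of all peaks, and FOX (TGTTTAC) in 7.27% against 5.34%. TEAD (GGAATG) was found in 13.5% against 11.6%, T-box (GGTGTGA) in 6.18% against 4.58%, TCF/LEF in 3.48% against 2.85%, AP1 (TGANTCA) in 7.19% against 6.07% and POU (ATGCAAAT) in 1.34% against 1.21%. Over all distal peaks the shares were 21.5% for GATA, 13.1% for SOX, 7.03% for FOX and 13.5% for TEAD. There T-box had 5.52%, TCF/LEF 3.55% and AP1 7.36%. Beside all distal peaks, which include them, shared distal peaks thus stood higher for FOX and T-box alone among these. For FOX the intervals overlapped (6.86 to 7.69% and 6.79 to 7.28%), and for T-box they were apart (5.80 to 6.57% and 5.30 to 5.75%). The reversed controls stood at 3.14 and 3.34% for FOX and at 4.59 and 4.59% for T-box. The CTCF motif was present in 688 shared distal peaks (4.60%, interval 4.28 to 4.95%), against 3.54% of all peaks, 2.92% and 2.51% of the distal peaks of the DMSO and dTAG13 lists alone, and 3.58% of shared promoters. Its interval lay above those of the 4 other classes.

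**Figure D2:**
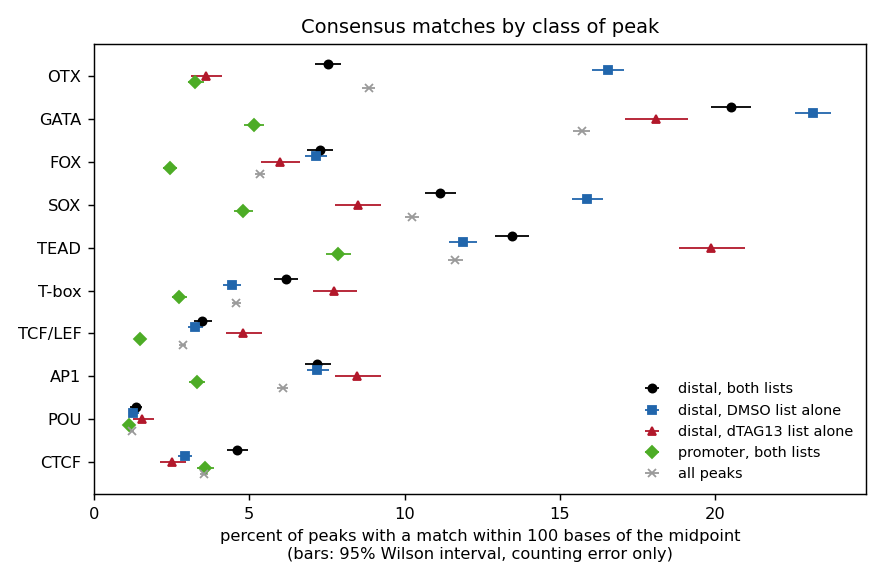
For each of 10 consensus sequences, symbols give the percent of peaks with a match within 100 bases of the midpoint, by class of peak, with 95% Wilson intervals as bars. The OTX symbols run from 3.26% at shared promoters through 7.51% at shared distal peaks to 16.5% at distal peaks of the DMSO list alone.

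Lower and higher shared distal peaks had intervals apart for SOX, TEAD and TCF/LEF. SOX stood at 24.0% of lower (19.3 to 29.4%) and 10.6% of higher peaks (7.13 to 15.3%), while its reversed control ran the other way, at 5.09 and 10.1%. GATA was found in 34.5% of lower and 26.6% of higher peaks, against 20.1% of those not called, and FOX in 13.5 and 6.42%, with intervals that overlapped between lower and higher peaks for both. TEAD was less frequent in lower peaks, with 10.2% of lower (interval 7.14 to 14.3%) and 22.9% of higher peaks (17.9 to 28.96%), against 13.4% of those not called. TCF/LEF was found in 2.55% of lower (1.24 to 5.16%) and 10.6% of higher peaks (7.13 to 15.3%). The reversed controls of TEAD and TCF/LEF had 4.0 and 1.45% in lower and 3.21 and 1.38% in higher peaks. T-box was found in 5.82% of lower and 11.9% of higher peaks, with intervals that overlapped (3.61 to 9.24% and 8.27 to 16.9%). Its reversed control differed as much, at 0.727% (0.200 to 2.61%) and 7.80% (4.93 to 12.1%), so nothing is read from the T-box letters. Like most shared distal peaks, those with the CTCF motif were nearly all outside the calls. Of the 688 with the motif, 0 were lower and 1 was higher, against 1.93 and 1.52% of those without it. Over all shared distal peaks the shares were 1.84 and 1.46%, and over all tested peaks 3.79 and 1.47%. The median mean normalized count was 7.95 with the motif and 10.6 without it. The part of this lower count in the absence of calls was not tested.

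The deposited log2 fold change went down with the number of OTX matches. In the authors' deposited table its median was 0.11 at the 13834 shared distal peaks with no match, -0.23 at the 1065 with 1 match and -0.58 at the 59 with 2 or more. Values were below 0 at 42.9, 64.3 and 86.4% of them. The median mean normalized counts of these sets were 10.3, 12.2 and 16.7, and the number of matches was not examined within bins of count. The 59 include neighbouring peaks at Gm21967 with 58.9 to 100% of words repeated and values from -0.78 to -0.43. Of the 59, 7 were called lower and 0 higher, beside 1.84 and 1.46% of all shared distal peaks. The reversed control showed the same order over a smaller span, with medians of 0.10, -0.06 and -0.24. Peaks with the control include some that also hold the consensus, since both fit into GGATTAGG, as at Fam178b and Il17rd. The difference in median between peaks with and without the OTX consensus was -0.36. Among the 59, the lowest value was -1.85 (SE 0.38), at a peak assigned to Nhej1, a DNA end-joining factor (chromosome 1, 75027468 to 75027973), whose approximate means were 42.5 in DMSO and 11.8 in dTAG13.

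**Figure D3:**
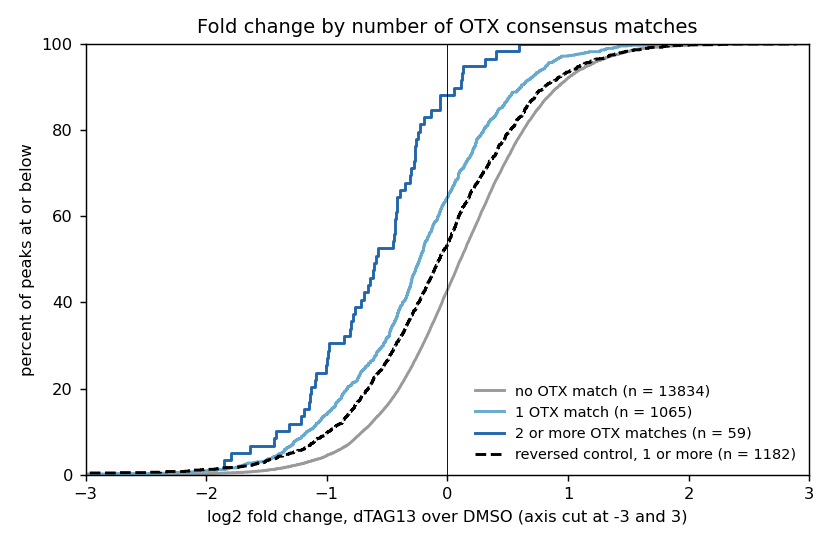
Curves give the percent of shared distal peaks at or below each deposited log2 fold change, by number of OTX matches, with the reversed control dashed. The curve for 2 or more matches lies furthest to the left (median -0.58, n = 59), and the control (n = 1182) lies between those for no match (0.11) and 1 match (-0.23). The control includes some peaks that also hold the consensus.

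GC content and signal vary with these letters, so the medians were taken within 4 bins of each, cut at the quartiles. In the bins of GC content, from low to high, peaks with the OTX consensus had median deposited log2 fold changes of -0.27, -0.25, -0.21 and -0.25. Peaks without it had 0.10, 0.15, 0.13 and 0.08, and those with the reversed control -0.15, 0.02, -0.03 and -0.11. In the bins of mean normalized count, peaks with the OTX consensus had 0.09, -0.08, -0.32 and -0.44. Peaks without it had 0.22, 0.16, 0.08 and -0.02, and the control 0.12, 0.03, -0.10 and -0.26. The difference between peaks with and without the consensus was thus present in each bin and wider where the signal was strong. In the strongest bin, 67 of 386 peaks with the consensus were called lower and 4 higher, against 172 and 149 of 3354 without it.

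In lower peaks, OTX matches were most frequent within 100 bases of the midpoint. A match centred within 50 bases of it was found in 15.3% of lower peaks, at 50 to 100 bases in 13.1%, and in 3.27 to 5.82% of them in each bin from 100 to 500 bases. The reversed control in lower peaks also fell outwards, from 9.45 and 8.36% in the same inner bins to between 1.82 and 7.27% in the outer ones. In peaks not called the share was 3.89% within 50 bases and 3.63% at 50 to 100 bases. Higher peaks had 0.917% within 50 bases and 4.13% at 450 to 500 bases, with wide intervals (0.252 to 3.28% and 2.19 to 7.66%). Lower peaks also spanned more bases (median 347, against 165 where no call was made), so the outer windows reach beyond most peaks of either kind.

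**Figure D4:**
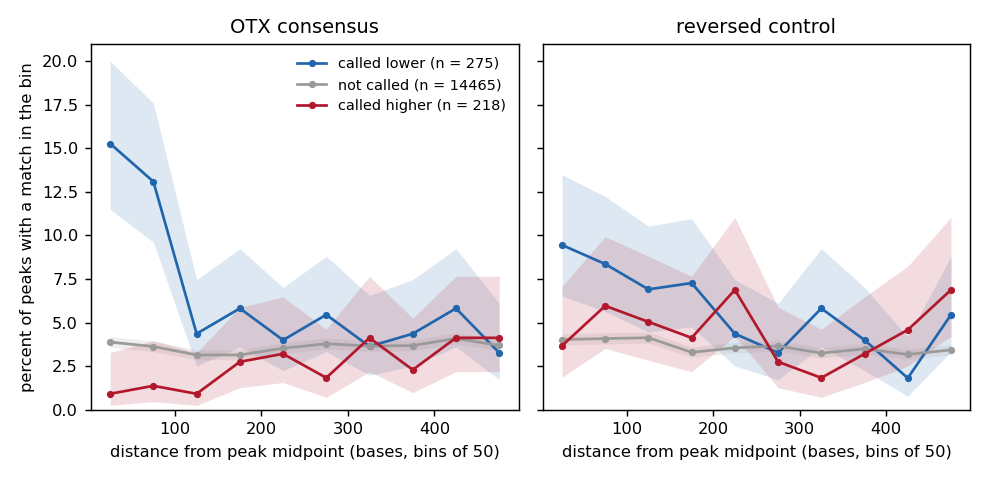
The percent of shared distal peaks with a match in each bin of 50 bases from the midpoint is shown for the OTX consensus (left) and the reversed control (right), with 95% Wilson intervals shaded. Lower peaks (blue) start at 15.3% in the innermost OTX bin and end at 3.27%, and peaks not called (grey) start at 3.89%.

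Peaks with the OTX consensus differed further by what else they held. Those with a GATA match as well had a median log2 fold change of -0.38 in the authors' deposited table, and 28 of 286 were called lower. Those without GATA had -0.20, and 47 of 838 were called lower. Over all shared distal peaks 1.84% were called lower, and over all tested peaks 3.79%. With SOX the median was -0.37 (15 of 134 lower) and without it -0.23. With FOX it was -0.42 (7 of 95 lower) and without it -0.24. With TEAD it was -0.11 (9 of 159 lower) and without it -0.27, so among the 4 companions TEAD alone went with a value nearer 0. Peaks without an OTX match were ordered alike. Among them the median was 0.04 with GATA and 0.13 without, -0.02 with SOX and 0.12 without, -0.02 with FOX and 0.12 without, and 0.20 with TEAD and 0.10 without.

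By the authors' gene column, shared distal peaks were assigned to 9611 genes, 6480 of them with a single such peak and 255 with 5 or more. The genes with most were Pde4d, which encodes a cAMP phosphodiesterase, and Tbc1d22a, a TBC-domain protein, with 13 each. They were followed by Gm26834 and Tns3, a focal adhesion protein, with 11 each, and by Ank3, which encodes ankyrin-G and shared its 10 with Il17rd and Nrxn3. Most of these are long genes with peaks spread over them. At Pde4d the deposited log2 fold changes ran from -0.71 to 1.31 with a median of 0.43, and none was called. At Tbc1d22a they ran from -1.09 to 1.13 with a median of -0.04 and no call. At Gm26834 and Tns3, 1 peak each was called lower. The lower peak at Tns3 (chromosome 11, 8585094 to 8585396) had -1.45 (adjusted p 0.0192) in the authors' deposited table.

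Lower peaks were assigned to 265 genes and higher peaks to 211, with 4 genes in common, namely Fggy, Lamc1, Mir6538 and Shroom3. Nothing is read from this small overlap, since 6480 of the 9611 genes had a single shared distal peak and could not hold both calls. At Shroom3, an actin-binding protein of apical constriction, the deposited log2 fold changes of its 2 shared distal peaks were -1.29 and 1.52. At Lamc1, a laminin chain, they were -1.22 and 1.82. Several lower peaks at 1 gene were found for 10 genes. Among these were Shisa2, the TGF-beta receptor gene Tgfbr2, the glucose transporter gene Slc2a3, and Hs3st3b1, a heparan sulfate sulfotransferase gene, each with 2 lower peaks. Several higher peaks were found for 7 genes, among them Prdm16 and Trps1, which encode zinc finger transcription factors, and Rftn1, a lipid raft protein. The 5 shared distal peaks at Rftn1 ran from 0.04 to 1.90 in the authors' deposited table. These genes were singled out after their values had been seen.

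For the study's tissue, 93 genes in 9 lists were examined. Shared distal peaks were assigned to 53 of them, 104 peaks in all, of which 7 were lower and 0 higher by an adjusted p under 0.05 in the authors' deposited table, beside 3.79% lower and 1.47% higher of all tested peaks and 1.84 and 1.46% of shared distal peaks. The median log2 fold change of the 104 was -0.12, beside 0.09 for all shared distal peaks and -0.18 for all peaks. Open regions were present at genes of other cell types as well. Of the 13 definitive endoderm factors 12 had a peak of any class, as did 9 of 9 mesoderm, 5 of 6 neural and 8 of 8 pluripotency genes, so peaks near markers do not tell the cell types apart here. Expression was not analysed here.

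Among the definitive endoderm transcription factors, 10 shared distal peaks were assigned to 5 genes, and the other 8, among them Foxa2 and Sox17, had none. All 10 values were below 0, with a median of -0.42, and 1 passed the threshold. Beside this, values above 0 were found at 55.4% of shared distal peaks and 41.8% of all peaks, and no test was applied. With the median of all peaks at 0, 8 of the 10 lay below 0. The lower peak was intronic at Prdm1, which encodes the repressor BLIMP1 (chromosome 10, 44464189 to 44464829). Its approximate means were 60.1 in DMSO and 17.2 in dTAG13, with a deposited log2 fold change of -1.80 (SE 0.35, adjusted p 0.000134). The other 3 Prdm1 peaks had values from -0.67 to -0.48 and did not pass. The strongest peak of the list lay at Gata4, a zinc finger factor of endoderm and heart (chromosome 14, 63338468 to 63338866), with 67.3 and 61.1 counts and -0.14 (SE 0.23). Peaks at Eomes, the T-box factor that starts endoderm formation (chromosome 9, 118486899 to 118487170), and at the homeobox gene Gsc (chromosome 12, 104467017 to 104467352) had log2 differences of -0.24 (SE 0.30) and -0.23 (SE 0.29), as deposited by the authors. The Eomes peak held an OTX consensus.

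Of the anterior endoderm and head organiser genes, 9 of 12 had 23 shared distal peaks, with a median of -0.16 and 4 called lower. Both lower peaks assigned to Shisa2, whose product holds FGF and WNT receptors in the endoplasmic reticulum, lay in introns. The transcripts that hold these introns need not be of Shisa2. The peak at 59756508 to 59756943 on chromosome 14, whose OTX match is shown above, lay in intron 32 of 35. The nearest start site, that of Gm19716, was 114178 bases away. This peak had approximate means of 45.3 in DMSO and 16.2 in dTAG13 and a deposited log2 fold change of -1.49 (SE 0.37, adjusted p 0.00546). The peak at 59737191 to 59737507 had 48.1 and 23.4 and -1.04 (SE 0.32, adjusted p 0.0302), a call lost with the median of all peaks at 0 (adjusted p 0.0807). The third Shisa2 peak had -0.88 (SE 0.54) and did not pass.

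The WNT antagonists of the list differed among themselves. At Dkk1, which blocks the LRP5 and LRP6 co-receptors, the single shared distal peak lay 4956 bases from the start site (chromosome 19, 30554417 to 30554824). Its approximate means were 62.5 and 30.5, and the deposited log2 fold change was -1.04 (SE 0.28, adjusted p 0.0113). At Sfrp5, a secreted Frizzled-related protein (chromosome 19, 42213666 to 42214140), the means were 81.2 and 40.6 with -0.999 (SE 0.24, adjusted p 0.0031). Sfrp1, of the same family, had 7 shared distal peaks on chromosome 8 with values from -0.56 to 1.53, none of them past the threshold. The peak of Sfrp1 at 23387476 to 23387930 had 46.4 and 43.7 counts and a deposited value of -0.09 (SE 0.28) while holding 1 OTX and 3 GATA matches. Frzb had 3 peaks between 0.18 and 0.92. Lefty1, an inhibitor of NODAL, had 3 peaks with -0.83, -0.37 and 0.11 at 33.6, 76.9 and 41.9 mean normalized counts.

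Of the surface and adhesion genes, Cxcr4, the chemokine receptor used to sort definitive endoderm, had 5 shared distal peaks on chromosome 1. The peak at 128654146 to 128654401 had approximate means of 43.2 in DMSO and 18.2 in dTAG13 and a deposited log2 fold change of -1.24 (SE 0.33, adjusted p 0.0107). Its neighbour at 128654655 to 128654948 had -1.03 (SE 0.37, adjusted p 0.0723), and the one at 128640005 to 128640230 reached 1.21 (SE 0.50, adjusted p 0.136 as deposited by the authors). Peaks of the same gene thus ran in both directions, and 1 of 5 passed. Peaks at the epithelial genes Cdh1 (-0.16, SE 0.34) and Epcam (0.56 and 0.81) did not pass.

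None of the 17 shared distal peaks at 10 primitive streak and WNT response genes was called, and their median was 0.05. The strongest lay at Fgf8 (chromosome 19, 45733330 to 45733585), with approximate means of 45.5 and 47.2 and a deposited log2 fold change of 0.05 (SE 0.27). The 3 peaks at Axin2, a feedback target of WNT signalling, had 0.15, 0.18 and 0.56, and the 1 at T, the Brachyury gene, had 0.68 (SE 0.60). At Tcf7l1, a WNT repressor, the peak had -0.99 (SE 0.43, adjusted p 0.162).

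The 18 peaks at NODAL, activin and BMP signalling genes had a median of 0.04 and no call. The strongest of all listed peaks lay at Lefty2, a secreted NODAL inhibitor (chromosome 1, 180888493 to 180889082), with approximate means of 84.1 in DMSO and 88.0 in dTAG13 and a deposited log2 fold change of 0.06 (SE 0.21). Its interval lay within 1 of 0. The intergenic peak at Nodal itself (chromosome 10, 61405978 to 61406494) had 39.0 and 21.2 and a deposited log2 fold change of -0.88 (SE 0.37, adjusted p 0.143). At Bmp2 the value was -1.47 (SE 0.56, adjusted p 0.0963), and 6 peaks at Smad3 ran from -0.62 to 0.38.

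Among the markers of other cell types, 1 of 19 shared distal peaks was called. It was the intronic peak of Kdr, a VEGF receptor of mesoderm (chromosome 5, 75954276 to 75954591), with 34.7 and 15.3 counts and a deposited log2 fold change of -1.19 (SE 0.38, adjusted p 0.0381). The call was lost with the median of all peaks at 0 (adjusted p 0.0845). The 11 peaks at pluripotency genes had a median of -0.12 and no call. They included 6 at Esrrb (-1.03 to 0.26), 2 at Fgf5 (0.21 and 0.46), both with an OTX match, and 1 at Nanog (1.003, SE 0.41, adjusted p 0.132), all as deposited by the authors. The 3 peaks at neural genes, at Neurog2 and Pou3f1, lay between -0.61 and 0.20.

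**Figure D5:**
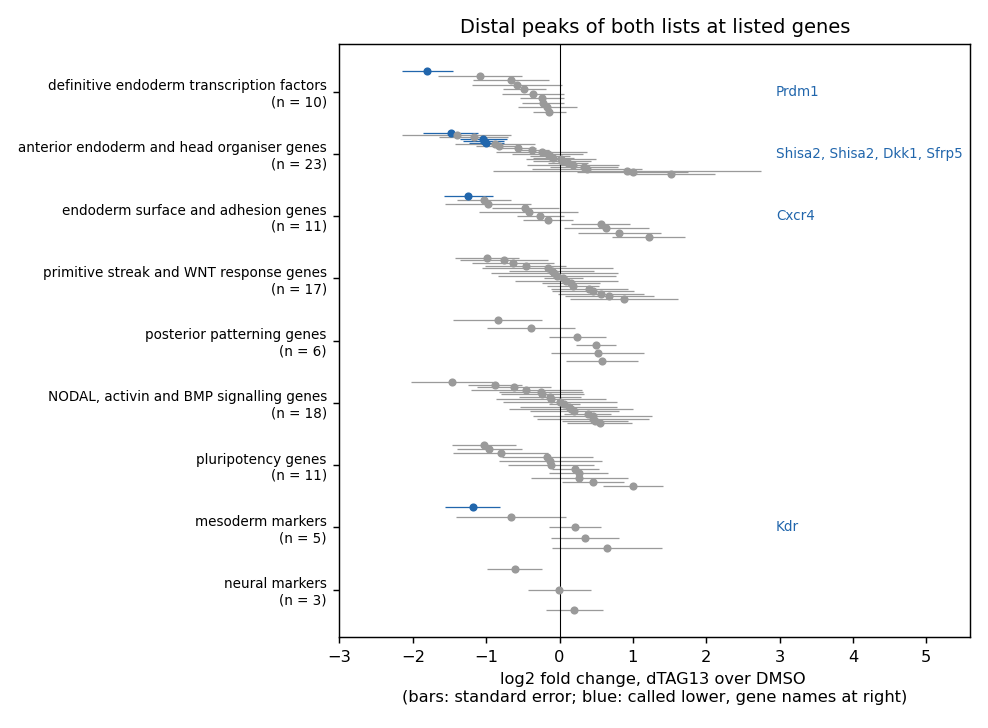
Points give the deposited log2 fold change of each shared distal peak at the listed genes, with the standard error as bar, by list. The 7 lower peaks are blue with their genes named at the right. All 10 endoderm factor peaks lie below 0, with 1 of them called, and the streak and WNT response peaks lie on both sides of 0. Of all peaks, 41.8% lie above 0.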

How the data were processed

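ATAC-seq was run on 3 DMSO and 3 dTAG13 libraries. As signal per peak the authors deposited a mean normalized count, taken over the 6 libraries. Per the file headers, the authors gave for each peak a log2 fold change of dTAG13 over DMSO with its SE on the log2 scale, a score that is their ratio, and a p-value with its adjusted p-value. Per the submitters' processing notes, fastp, Bowtie2, MACS2, featureCounts, HOMER 4.11 and ChIPseeker were used with build mm10. Their order and settings, the handling of duplicates and repeated mapping, the shift of read ends, the MACS2 threshold and the differential tool are not given in the sources used here. The 2 peak lists hold positions called by the authors on the pooled libraries of a group.

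Values per library were not analysed here, so no test was refitted, and the authors' calls at an adjusted p under 0.05 were counted as deposited. Depth per library is unknown, and the deposited SE gives the precision at each peak. Approximate group means follow from the deposited mean and fold change, with groups of equal size. Of 7579 host transcripts named in the deposited table, 6363 (84.0%) are in GENCODE mouse release 21, whose start sites were used. Windows of 201 bases were read from GRCm38.p6. Words of 31 bases were counted over its assembled chromosomes and the mitochondrial genome, so copies on unplaced sequences were not seen. Positions are 1-based. The members, gene lists and motifs were chosen with earlier results of these data known. The peaks named were the 5 lower and 5 higher ones with the smallest deposited p, the 5 strongest, the 5 with the narrowest interval around 0, the 5 genes with most peaks, and listed genes by their called and strongest peaks. The result of a single gene on the lists is not reported here. Further peaks of the named genes, and peaks with several OTX matches, were named after their values had been seen. Alternatives covered the overlap, the distance to a start site, the count filter, the zero point, the first introns, the threshold, the motif window and repeated words. Scripts ran under Python 3.11.15 with numpy 2.4.6, pandas 2.3.3, scipy 1.17.1 and matplotlib 3.10.9. Functions were tested on simulated data, where 400 of 400 overlaps, 200 of 200 planted motifs and 3 of 3 copied words were found.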

Additional observations from a re-analysis of the deposited data

How the results depend on the processing

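The median log2 fold change of shared distal peaks, 0.09, changed sign with a mean normalized count of at least 10 (-0.0151) and with the median of the peaks of both lists at 0 (-0.00834, chosen after seeing the data). It was 0.15 with an overlap of 50% of both peaks and 0.27 with the median of all peaks at 0. The number of peaks fell to 7842 with the count filter. The 275 lower calls became 82 with the 50% overlap, 167 with the median of all peaks at 0 and 113 at an adjusted p under 0.01, and the 218 higher calls became 141, 403 and 84. The 50% overlap is not independent of the fold change, since the lengths of the list peaks followed it. The share with an interval within 1 of 0 was 11.6% with the 50% overlap and 19.8% with the count filter. The OTX share was 6.50% with the 50% overlap, 9.12% with the count filter and 3.92% within 50 bases of the midpoint. The OTX difference of -0.36 stayed below 0 in each alternative run for it and was -0.26 with the 50% overlap and -0.42 with the count filter. The other 28 of 46 values moved by less than their error or, for counts, less than 1.5 times, among them those without repeated peaks, an alternative also added late. No paired analysis was possible because values per library were not analysed here. With a median SE of 0.58, changes below 1 in log2 were not detectable at most of these peaks.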

Other observations

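The authors' deposited table carries a pair of columns that mark genes as down or up, whose origin is not stated in the sources used here. Of the shared distal peaks, 392 were assigned to 204 genes marked as down. Their median log2 fold change was -0.12, and 30 (7.65%) were called lower and 3 (0.765%) higher. At 210 genes marked as up lay 508 shared distal peaks with a median of 0.13, of which 5 (0.984%) were called lower and 17 (3.35%) higher. The median was 0.09 at the 14058 peaks of genes with neither mark. Of those, 240 (1.71%) were called lower and 198 (1.41%) higher, beside 1.84 and 1.46% of all shared distal peaks. The OTX consensus was found in 9.95% of the first, 8.86% of the second and 7.40% of the third of these sets. No test was applied to these differences.

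The base just before the OTX consensus GGATTA was described for 82 matches in lower peaks and 1086 in peaks not called. It was A in 36.6 and 37.3%, G in 32.9 and 35.5%, T in 25.6 and 23.7% and C in 4.88 and 3.59% of them.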
